A study of Mus musculus with 3 samples.

Results

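The genes described here are 9 transcripts of late neutrophil maturation, taken by name from the deposited files: the gelatinase granule and surface genes Mmp8, Mmp9, Mmp25, Cd177, Retnlg, Padi4, Itgb2l, Ly6g and Adam8. Each was found once among the 11419 genes that the deposited files list. The study has 1 group, cells sorted from the hind limb marrow of C57BL/6 mice as CX3CR1-negative and bearing CD11b, F4/80 and CD169 on their surface. It was sequenced as 3 messenger RNA libraries, with no treatment and no second population. The labels call the cells macrophages, in quotation marks in the design text. They leave unsaid whether the libraries are from separate mice, so the spread and the p-values given here may be technical.

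Neutrophils fill their granules in sequence as they mature in the marrow. Azurophil granules with myeloperoxidase and elastase are made in promyelocytes, specific granules with lactoferrin in myelocytes and metamyelocytes, and gelatinase granules with MMP9 in metamyelocytes and band cells, while many surface receptors appear at the segmented stage. Granule protein messages are made mainly at the stage in which the granule forms, so the ratios between these gene groups bear on stage. Here they are descriptions only, because no population of known stage was sequenced beside these cells. Such ratios in bulk RNA cannot tell a mixture of stages from cells that share a stage. The stage of the cells was therefore not tested.

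The libraries held 5150020, 40149274 and 37604930 assigned reads in replicates 1, 2 and 3, and values are in CPM, a gene's reads scaled to 1000000 in all. All 9 genes had at least 1326 reads in every library, so their counting error was at most 2.75% of the value. Of 12 resident macrophage markers, 4 were above 10 CPM, 5 below and 3 not called (limma, adjusted p under 0.05), and their summed level was 211 to 224 CPM. Over all 11123 genes tested, 58.8% were called above 10 CPM and 28.3% below. Of the genes for the gate's surface proteins, Siglec1 (CD169) was at 2.87 ± 2.20 CPM and called below 10 CPM (SD, n = 3). Adgre1 (F4/80) was at 22.2 ± 3.97 CPM and Itgam (CD11b) at 503 ± 55.1 CPM, both called above. Cx3cr1, whose protein the gate excluded, was at 0, 0.423 and 0 CPM in replicates 1, 2 and 3 and called below 10 CPM. Markers of other cells were summed over their lists too. Eosinophil markers, of which 6 of 8 were above 10 CPM, gave 563, 936 and 1366 CPM in replicates 1, 2 and 3. Basophil and mast cell markers, of which 3 of 5 listed were above 10 CPM, a share near that over all genes, gave 927, 126 and 135 CPM. B lymphoid markers gave 20.4 to 39.0 CPM, T and NK markers 79.8 to 109 CPM and erythroid markers 554 to 986 CPM. Progenitor markers gave 79.2 to 98.3 CPM, monocyte markers 960 to 1181 CPM (mostly Ly6c2, which granulocyte precursors also carry) and stromal markers 2.91 to 11.9 CPM, with Kdr at 0 in every library. In such bulk RNA, more cells of a type and more RNA per cell cannot be told apart.

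All 9 genes were far above 10 CPM, and together they took 1.95 ± 0.0231% of all assigned reads (SD, n = 3). The share was 1.92% in replicate 1 (95% exact binomial interval 1.91 to 1.94%), 1.97% in replicate 2 (1.96 to 1.97%) and 1.96% in replicate 3 (1.96 to 1.97%), intervals that cover counting error only. In the limma test of log2(CPM + 1) against a level of 10 CPM, 9 of 9 were called higher and 0 lower, while 58.8% of the 11123 genes tested were called higher and 28.3% lower. edgeR's quasi-likelihood test on the recovered reads called the same 9 higher, beside 59.9% of all genes higher and 25.1% lower. Their log2 differences ran from 4.97 (SE 0.12, limma adjusted p = 2.93e-20) for Mmp25 to 8.86 (SE 0.10, limma adjusted p = 2.59e-25) for Mmp9. Against 100 CPM, 9 of 9 were still called higher, beside 12.3% of all genes called higher and 81.5% lower. The calls against 10 CPM held with any 1 library left out. The size of the p-values rested on the variance trend that limma fits over all genes. Without that trend the calls held, with limma adjusted p of 1.18e-06 for Mmp9 and 2.70e-06 for Mmp25. The median of the 9 means was 1183 CPM, beside 19.7 CPM over all listed genes.

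The 4 metalloproteases of the group spanned the whole range of its levels in CPM. Mmp9, which encodes gelatinase B, the protease that names the granule, had 4999, 5088 and 5262 CPM in replicates 1, 2 and 3, a mean of 5116 ± 134 CPM. By CPM it was the highest of the 9 and ranked 12 among all genes, between Arhgdib (5242 ± 606 CPM) and Cd177, with Chil3 (5741 ± 378 CPM) and Flna (4270.5 ± 502 CPM) the next genes out. Mmp8, which encodes neutrophil collagenase, had 2658, 2691 and 3574 CPM (mean 2974 ± 519.6 CPM). Replicate 3 stood above the others for Mmp8, whereas the 3 values of Mmp9 lay close together.

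Adam8 and Mmp25, the membrane-bound proteases, were the lowest of the 9 both by CPM and per length of exon. Adam8, a disintegrin and metalloprotease of myeloid cell surfaces, had 361, 389.7 and 413 CPM (mean 388 ± 25.8 CPM). Mmp25, a metalloprotease held in the membrane by a lipid anchor, had 257, 392 and 407 CPM (mean 352 ± 82.1 CPM). It ranked 343 among all genes, just under Nudt4 (353 ± 32.0 CPM) and Flot1 (353 ± 26.9 CPM) and just above Akt1 (352 ± 41.3 CPM) and Rab7 (352 ± 37.8 CPM). Replicate 1 was the low library for Mmp25, and the other two were alike.

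Surface genes of mature neutrophils differed widely in CPM. Cd177, a lipid-anchored glycoprotein of the neutrophil surface and of granule membranes, had 5039, 4955 and 4779 CPM (mean 4924 ± 133 CPM), next in rank to Mmp9. Itgb2l, a mouse integrin beta chain related to the beta 2 chain of CD11b/CD18, had 1124, 1220.2 and 1206 CPM (mean 1183 ± 51.8 CPM). Ly6g, the antigen by which antibodies single out mouse neutrophils, had 514, 575 and 457 CPM (mean 516 ± 58.8 CPM). The values of Cd177 and Itgb2l were nearly flat across libraries, while Ly6g was lowest in replicate 3.

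The secreted and nuclear members lay between these. Retnlg, a small cysteine-rich protein of the resistin family that mouse neutrophils secrete, had 3638, 3576 and 2749 CPM (mean 3321 ± 496 CPM). Replicate 3 was the low library for Retnlg, the reverse of Mmp8. Padi4, the deiminase that turns histone arginine into citrulline when neutrophil chromatin is released as extracellular traps, had 659, 769 and 799 CPM (mean 742 ± 73.9 CPM), with replicate 1 lowest.

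**Figure D1:**
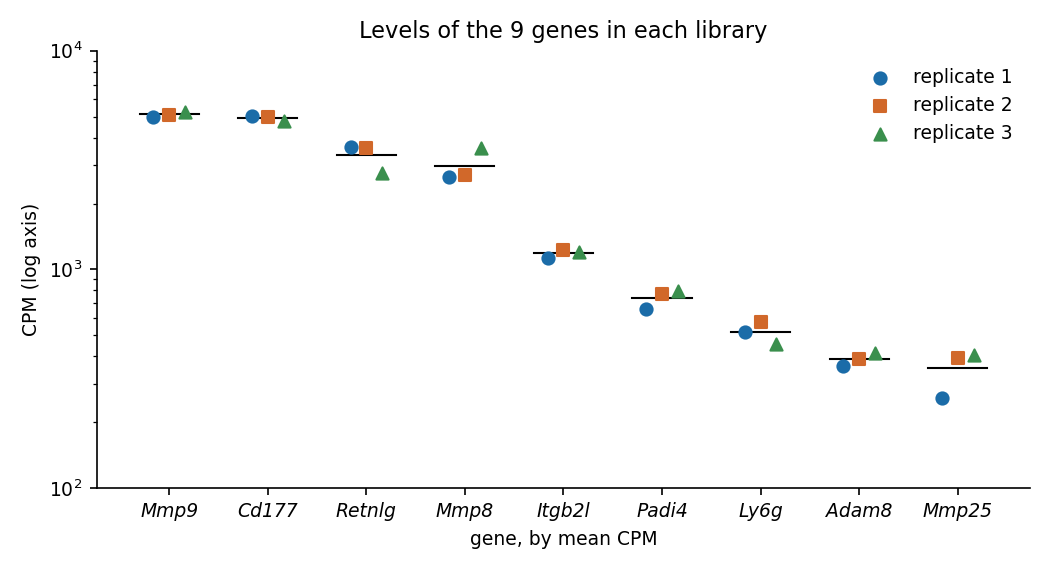
CPM on a log axis for each of the 9 genes, ordered by mean; points are the 3 libraries and the bars their means. Mmp9 (5116 CPM) and Cd177 (4924 CPM) have points that almost coincide, Mmp8 and Retnlg part in replicate 3 in opposite directions, and Mmp25 is low in replicate 1 (257 CPM).

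On GRCm38, the genes lie apart on 7 chromosomes, and all are protein-coding. Mmp9 (ENSMUSG00000017737) spans chromosome 2, 164940780 to 164955850, plus strand, and Padi4 (ENSMUSG00000025330) chromosome 4, 140745865 to 140774236, minus strand. Cd177 (ENSMUSG00000052212) spans chromosome 7, 24743983 to 24760311, minus strand, and Adam8 (ENSMUSG00000025473) 139978932 to 139992562 on the same chromosome and strand. Mmp8 (ENSMUSG00000005800) spans chromosome 9, 7558456 to 7568485, plus strand. Ly6g (ENSMUSG00000022582) spans chromosome 15, 75155240 to 75159126, plus strand. Retnlg (ENSMUSG00000022651) spans chromosome 16, 48872621 to 48874496, plus strand, and Itgb2l (ENSMUSG00000000157) 96422288 to 96443619, minus strand. Mmp25 (ENSMUSG00000023903) spans chromosome 17, 23628311 to 23645277, minus strand. The intervals cover whole genes with exons and introns.

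Few stretches of these genes had exact copies elsewhere. The stretches of 50 bases in the longest GENCODE transcript of each gene were looked up in the transcripts of all other genes, and 7 of the 9 shared none. Cd177 shared 5.74% of its stretches, with Gm4763 and BC049730, and Ly6g shared 0.448%, with Ly6i and Gm28116. At 75 bases the shares were 3.75% for Cd177 and 0% for Ly6g. How reads with several matches were counted is not given in the sources used here, so the level of Cd177 is uncertain to that extent.

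The promoters of the genes with a start site in the RefSeq table (GRCm38.p6, 8 of the 9, without Mmp9) were searched on both strands, in the 250 bases before the start, for the letters of 2 factor families that drive granule genes and of the TATA and CCAAT boxes. The letters TTNCNNAA, a form of the C/EBP half-sites, were found in 6 of 8 (Adam8, Cd177, Itgb2l, Ly6g, Mmp8 and Retnlg) and in 36.9% of 27025 mouse promoters. AGGAAG, the core bound by PU.1 and other ETS factors, was in 5 of 8 (Itgb2l, Ly6g, Mmp25, Mmp8 and Padi4) and in 29.2% of all, while TATAAA was in 3 of 8 (Cd177, Ly6g and Padi4) and in 3504 of the 27025. CCAAT was in 3 of 8 (Adam8, Ly6g and Retnlg) and in 34.5% of all. In these promoters 0 matches to different motifs overlapped, and a match is a description of letters and not a bound site. The 150 bases before the start are printed for 4 genes, highly expressed or surface markers, that between them show each kind of match, 5′ to 3′ on the gene's strand, with the matches that lie whole inside the window in capitals. They lie at chr7:24760312-24760461 (Cd177, minus strand), chr9:7558279-7558428 (Mmp8, plus strand), chr15:75155111-75155260 (Ly6g, plus strand) and chr16:96443615-96443764 (Itgb2l, minus strand). Starts are those of RefSeq and the gene intervals given above those of GENCODE, so the windows of Ly6g and Itgb2l reach into their gene intervals.
Cd177: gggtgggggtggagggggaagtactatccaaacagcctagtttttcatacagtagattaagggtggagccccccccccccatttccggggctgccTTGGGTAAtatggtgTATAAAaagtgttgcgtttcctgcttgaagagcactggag
Mmp8: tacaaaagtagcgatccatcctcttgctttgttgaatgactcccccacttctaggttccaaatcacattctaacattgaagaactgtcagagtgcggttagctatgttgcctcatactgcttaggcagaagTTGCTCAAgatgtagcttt
Ly6g: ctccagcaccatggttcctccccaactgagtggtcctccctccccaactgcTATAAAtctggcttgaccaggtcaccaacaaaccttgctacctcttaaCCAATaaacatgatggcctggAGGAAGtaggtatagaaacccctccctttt
Itgb2l: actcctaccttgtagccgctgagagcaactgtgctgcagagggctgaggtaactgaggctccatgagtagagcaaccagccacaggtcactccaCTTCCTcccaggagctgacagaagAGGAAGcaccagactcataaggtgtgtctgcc
The nearest C/EBP-type match of Mmp8 begins 19 bases before its start and that of Cd177 55 bases before. A further C/EBP-type match of Mmp8 begins 151 bases before the start, so the printed window cuts it and it is not in capitals. The nearest ETS core begins 30 bases before the start of Ly6g and 32 bases before that of Itgb2l.

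Levels of different genes can be set side by side only per length, because a longer message gives more reads. CPM was therefore divided by the summed exon length in kb. This length counts every annotated exon and can exceed that of the longest transcript. It was 4835 against 3021 bp for Padi4, 4324 against 2806 bp for Itgb2l and 4638 against 3669 bp for Adam8. For Mmp25 it was 5303 against 4528 bp, for Mmp9 3539 against 3175 bp and for Cd177 2840 against 2714 bp. For Retnlg (593 bp) and Mmp8 (2425 bp) the lengths were equal. The values per kb of genes with such a gap are therefore low estimates, and transcript lengths were not tried. On this scale Retnlg, with 593 bp of exon, led with 5600.4 ± 837 CPM per kb. Cd177 followed at 1734 ± 46.8, Mmp9 at 1446 ± 37.9 and Mmp8 at 1226 ± 214 CPM per kb. Then came Ly6g (547 ± 62.4), Itgb2l (274 ± 12.0), Padi4 (154 ± 15.3), Adam8 (83.6 ± 5.56) and Mmp25 (66.4 ± 15.5 CPM per kb; SD, n = 3 for each). Between neighbours in this order, 6 of 8 differences had 1 sign in every library and a mean over 2 SD. The exceptions were Mmp9 over Mmp8 (log2 difference per kb 0.25 ± 0.21) and Adam8 over Mmp25 (0.36 ± 0.28). Without the length correction the order began with Mmp9, Cd177 and Retnlg, and 4 of 8 neighbours differed beyond this spread.

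Set against the azurophil genes of promyelocytes, most of the group was higher per length. The azurophil level was the mean of log2(CPM + 1) minus log2(kb) over Mpo, Elane, Prtn3, Ctsg, Ms4a3 and Ctsc in the same library, and every gene was tested against it in limma. Of the 9, 6 were called higher and 2 lower, while 1.56% of the 11115 genes tested were called higher and 97.5% lower. Retnlg exceeded that level by 4.97 on the log2 scale (SE 0.16, limma adjusted p = 5.07e-86), Cd177 by 3.29 (SE 0.15, adjusted p = 1.89e-60) and Mmp9 by 3.02 (SE 0.15, adjusted p = 5.13e-55). Mmp8 exceeded it by 2.77 (SE 0.15, limma adjusted p = 2.46e-49) and Ly6g by 1.62 (SE 0.15, adjusted p = 2.61e-23). Itgb2l was 0.62 higher (SE 0.15, limma adjusted p = 3.65e-05), and Padi4, at -0.22, was not called (SE 0.15, limma adjusted p = 0.155). The membrane proteases were lower, Adam8 at -1.09 (SE 0.16, limma adjusted p = 2.19e-11) and Mmp25 at -1.45 (SE 0.16, adjusted p = 3.24e-17). Each call held with any 1 library left out. Without limma's variance trend the calls held too, but the limma adjusted p was 6.28e-10 for Retnlg and 0.0136 for Itgb2l. The azurophil level is common to all genes tested, so its own spread between libraries enters each of these differences. limma pools the variance over genes as if genes were independent, which genes sharing this level are not. The limma p-values against it, with or without the trend, can therefore be far too small, and their size is no measure of certainty. The spread among the azurophil genes themselves is not part of the SE.

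How the middle of the group reads depended on how that level was set. Ctsc, the protease that activates the serine proteases of the granule, was at 10.8 ± 2.33 CPM and pulled the mean down. With the median of the 6 azurophil genes in place of the mean, Itgb2l was at -0.10 and no longer called (limma adjusted p = 0.659). Padi4 was then called lower, at -0.94 (limma adjusted p = 4.46e-05). Without the length correction Padi4 was at 1.05 (limma adjusted p = 3.71e-08), Adam8 at 0.12 (adjusted p = 0.488) and Mmp25 at -0.05 (adjusted p = 0.790), so that 7 were called higher and 0 lower, against 2.24% and 95.8% of all genes. Retnlg, Cd177, Mmp9, Mmp8 and Ly6g were called higher in each of these settings.

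Against the specific granule genes the group was lower. The level here was the mean per length of Ltf, Camp, Ngp, Lcn2, Hp, Pglyrp1 and Chil3. Of the 9 genes, 8 were called lower and 0 higher, while 99.9% of all genes were called lower and 0.054% higher, so the count is near the background. The sizes set the 9 apart from each other. Mmp25 was at -6.57 (SE 0.14), Adam8 at -6.21 (SE 0.13), Padi4 at -5.34 (SE 0.13) and Itgb2l at -4.50 (SE 0.12) on the log2 scale per kb. Ly6g was at -3.50 (SE 0.12), Mmp8 at -2.35 (SE 0.12), Mmp9 at -2.10 (SE 0.12) and Cd177 at -1.84 (SE 0.12, limma adjusted p = 2.60e-52, the largest of the 8). Retnlg, at -0.16 (SE 0.13, limma adjusted p = 0.214), was the 1 gene of the group not called. Without the length correction 9 of 9 were called lower and 0 higher, beside 99.9% and 0.072% of all genes, with Retnlg at -1.67 (limma adjusted p = 5.42e-38). With the median of the 7 specific granule genes in place of the mean Retnlg was at 0.026 (limma adjusted p = 0.856). Without limma's variance trend the limma adjusted p of Cd177 was 1.56e-06. All genes tested share the specific granule level too, so the limit given for the azurophil p-values holds here.

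As group means per length, the 9 genes stood between the specific granule genes and the azurophil genes. The log2 ratio of the group mean to the azurophil mean was 1.23, 1.68 and 1.61 in replicates 1, 2 and 3 (1.50 ± 0.24, a 2.84-fold higher mean). This ratio was 1.92 without the length correction and 0.90 with list medians in place of means. To the specific granule mean the log2 ratio was -3.74, -3.64 and -3.47 (-3.62 ± 0.14, a mean 12.3-fold lower). To the mean of 15 genes of segmented neutrophils, mostly receptors and secreted products (the mature receptor list), it was 2.66, 2.53 and 2.42 (2.54 ± 0.12). To the mean of 8 cell cycle genes it was 3.93, 4.12 and 4.01 (4.02 ± 0.09; SD, n = 3 for each). The order of the 4 ratios was the same in each library, and the ratio to the azurophil mean had the widest spread. As sums of CPM, the group came to 19250, 19655 and 19645 CPM, against 7173, 5373 and 6042 CPM for the azurophil genes and 132861, 126749 and 117733 CPM for the specific granule genes. The azurophil sum was highest in replicate 1, where the group's sum was 2.68 times as high, against 3.66 and 3.25 times in replicates 2 and 3.

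**Figure D2:**
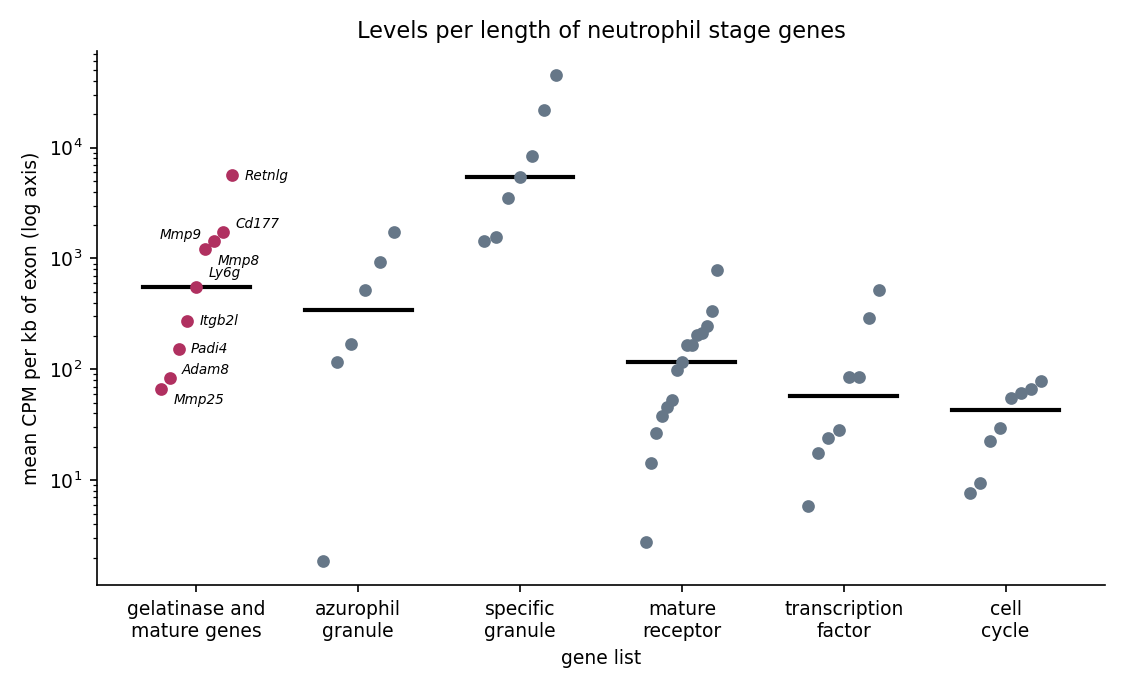
Mean CPM per kb of exon over 3 libraries on a log axis, 1 point per gene and a bar at the median of each list. The median of the 9 genes (547 CPM per kb) is above the azurophil (345), receptor (117), transcription factor (57.1) and cell cycle (42.6) medians and below the specific granule median (5466). The lowest azurophil point is Ctsc.

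Single marker genes were set beside Mmp9 in the same way. Per kb, Mmp9 over Ltf, the lactoferrin gene, was -2.57, -2.52 and -2.52 on the log2 scale in replicates 1, 2 and 3 (-2.54 ± 0.03). Mmp9 over Mpo, the myeloperoxidase gene, was 0.44, 0.89 and 0.60 (0.64 ± 0.23), and Mmp9 over Elane, the elastase gene, was -0.53, -0.14 and -0.05 (-0.24 ± 0.26). By CPM Mmp9 was above Elane (2008, 1558 and 1516 CPM) in every library, so the sign of that ratio rests on the exon lengths. The ratio of Mmp9 to Ltf was almost constant, whereas those to Mpo and Elane were lowest in replicate 1.

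The genes of segmented cells, mostly receptors and secreted products, had a lower median per length than the group, at 117 CPM per kb. Of 15 such genes, 14 were above 10 CPM and 1 below, beside 58.8% and 28.3% of all genes. Msrb1, a selenoprotein of mature neutrophils, was at 986 ± 81.4 CPM, Csf3r, the receptor for the growth factor G-CSF, at 894 ± 223 CPM and Mxd1, a MYC antagonist, at 826 ± 91.2 CPM. Il1b, the interleukin 1 beta gene, was at 50.9 ± 13.9 CPM and Wfdc17 at 1.49 ± 1.39 CPM. Mmp9 over Cxcr2, the chemokine receptor that brings neutrophils out of the marrow, was 3.52, 3.24 and 2.76 on the log2 scale per kb (3.18 ± 0.38), and over Csf3r it was 2.93, 2.52 and 2.27 (2.57 ± 0.33). Both receptors were highest in replicate 3, with 667 CPM for Cxcr2 and 1111 CPM for Csf3r, and lowest in replicate 1, with 374 and 667 CPM. Eosinophil markers were also highest in replicate 3 and lowest in replicate 1, and their part in these ratios was not tested.

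The 8 transcription factors of granulocyte maturation were all above 10 CPM, beside 58.8% of all genes. Spi1, which encodes PU.1, was at 789 ± 42.5 CPM, Cebpe, which is needed for specific and gelatinase granules, at 648 ± 82.6 CPM and Cebpd at 322 ± 28.2 CPM. Cebpa and Runx1, regulators of earlier stages, were lowest by CPM at 63.3 ± 9.19 and 70.4 ± 12.2 CPM. Per length Runx1 was lowest, at 5.85 CPM per kb, while Cebpa, at 24.0 CPM per kb, was not among the 2 lowest. All 8 cell cycle genes were above 10 CPM as well, led by Mki67 (668 ± 166 CPM), Top2a (499 ± 74.2 CPM) and Mcm5 (247 ± 31.3 CPM), and with Ccnb1 (39.4 ± 2.58 CPM) and Tyms (47.1 ± 4.23 CPM) lowest.

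Per length, the 4 metalloproteases of the group were above every listed relative. Of 17 other matrix metalloproteases and ADAM proteases, 10 were not listed, 4 were above 10 CPM, 2 below and 1 not called. Over all genes tested, 58.8% were above and 28.3% below. The highest by CPM were Adam15 (132 ± 16.3 CPM), Adam10 (109 ± 15.8 CPM) and Adam19 (86.7 ± 35.3 CPM), and the lowest Mmp14 (0.786 ± 0.516 CPM) and Mmp19 (2.80 ± 2.90 CPM). Adam10 led per length, with 22.3 CPM per kb, and Adam8 exceeded Adam10, a broadly expressed sheddase, by 1.91 ± 0.12 on the log2 scale per kb. Of 5 metalloprotease inhibitors 2 were listed, Timp2 at 165 ± 13.3 CPM and the membrane-bound Reck at 39.2 ± 1.87 CPM, both above 10 CPM. Mmp9 exceeded Timp2 by 5.09 ± 0.10 and Reck by 7.42 ± 0.07 on that scale.

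Padi4 was the higher of the 2 listed deiminases. Padi2 was at 10.3 ± 5.76 CPM and not called, with 16.7, 5.53 and 8.67 CPM in replicates 1, 2 and 3. Padi4 exceeded it by 5.27, 6.93 and 6.42 on the log2 scale per kb, and the other 3 Padi genes were not listed. No other resistin-family gene was listed beside Retnlg.

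Ly6g and Itgb2l had abundant relatives. Ly6c2, a surface antigen of monocytes and of granulocyte precursors, was at 1030.0 ± 105 CPM, and Ly6g exceeded it per kb by 0.39, 0.72 and 0.52 on the log2 scale (0.54 ± 0.16). By CPM Ly6g was lower in every library, at 514, 575 and 457 against 1141, 1017 and 932 CPM. The direction thus rests on the summed exon lengths, 942 bp for Ly6g and 2740 bp for Ly6c2. Ly6e was at 187 ± 50.5 CPM, while Ly6d (4.88 ± 4.27 CPM) and Ly6a (2.90 ± 1.03 CPM) were below 10 CPM. Itgb2, the common beta 2 chain, was at 2267 ± 184 CPM. Itgb2l was lower than Itgb2 in every library, by a log2 ratio per kb of -1.38, -1.42 and -1.51 (-1.44 ± 0.07). Itgb3 (98.9 ± 16.8 CPM), Itgb1 (83.3 ± 20.7 CPM) and Itgb7 (37.9 ± 7.23 CPM) were all above 10 CPM. Pecam1, which human CD177 binds, was at 10.1 ± 5.20 CPM and not called, with 15.9, 8.37 and 5.96 CPM in replicates 1, 2 and 3.

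Between libraries, 3 of the 9 genes were among the steadier genes of the data. The range of log2(CPM + 1) over the libraries was 0.07 for Mmp9, 0.08 for Cd177 and 0.12 for Itgb2l, and only 2.24%, 2.35% and 5.60% of the 7283 genes averaging 10 CPM or more had a smaller range. Adam8 (0.19, 14.4%), Padi4 (0.28, 27.3%) and Ly6g (0.33, 35.5%) followed. Retnlg (0.40, 47.3%) and Mmp8 (0.43, 50.8%) lay near the middle of all genes, and Mmp25 (0.66, 77.7%) above it. The median over the 9 was 0.28, beside 0.42 over those 7283 genes. Many of those genes had lower levels, and 10 CPM in replicate 1 is only 51.5 reads, so counting error widens their range more. Genes of like level were not compared. The spread of Mmp8, Retnlg and Mmp25 came from 1 library each. Between replicates 1 and 2 alone Mmp8 differed by -0.02 and Retnlg by 0.03 (replicate 1 minus replicate 2), and between replicates 3 and 2 alone Mmp25 differed by 0.05 (replicate 3 minus replicate 2).

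The 36 ratios between pairs of the 9 genes had an SD of 0.05 to 0.53 on the log2 scale over libraries, with a median of 0.21, and 22 were under 0.25. Mmp9 over Itgb2l was the steadiest, at 2.44, 2.35 and 2.41 per kb in replicates 1, 2 and 3. Next was Itgb2l over Adam8, at 1.74, 1.75 and 1.65. The least steady were Retnlg over Mmp25, at 6.98, 6.35 and 5.92, Ly6g over Mmp25 and Retnlg over Mmp8, with SDs of 0.53, 0.41 and 0.47. By reads alone Retnlg stood at 1.37 and 1.33 times Mmp8 in replicates 1 and 2 and at 0.769 times in replicate 3. Within the group's sum, Mmp9 and Cd177 kept 26.2 ± 0.498% and 25.2 ± 0.927%, while Mmp8 made up 13.8, 13.7 and 18.2% and Retnlg 18.9, 18.2 and 14.0%. Mmp9, Cd177, Retnlg and Mmp8 together made up 83.7 ± 1.00%.

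**Figure D3:**
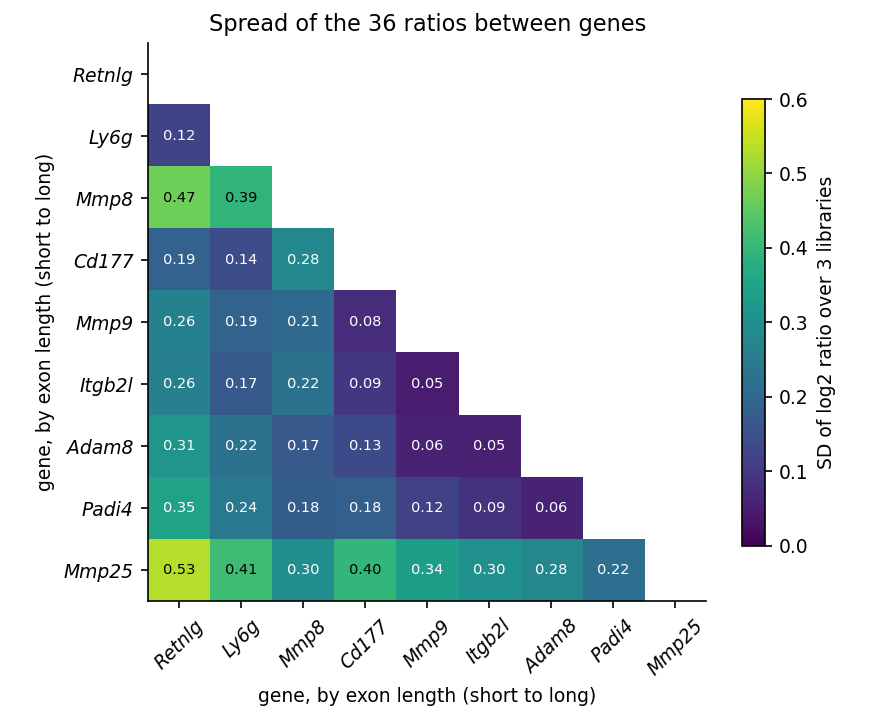
SD over 3 libraries of the log2 ratio between each pair of the 9 genes, with genes ordered by exon length on both axes. Values of 0.05 or 0.06 join Mmp9 with Itgb2l and Adam8 with Mmp9, Itgb2l and Padi4, and the highest values (0.53 for Retnlg with Mmp25 and 0.47 for Retnlg with Mmp8) lie in the column of Retnlg.

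Differences between the libraries moved with gene length over all genes. Over genes averaging 10 CPM or more whose exon length was known, the median log2 difference of replicate 3 minus replicate 1 was -0.15 in the quartile of shortest exon length (up to 3008 bp), 0.09 and 0.26 in the next quartiles and 0.40 in the longest (from 7188 bp). For the 9 genes this difference was -0.40 for Retnlg (593 bp), -0.17 for Ly6g (942 bp), 0.43 for Mmp8 (2425 bp) and -0.08 for Cd177 (2840 bp). It was 0.07 for Mmp9 (3539 bp), 0.10 for Itgb2l (4324 bp), 0.19 for Adam8 (4638 bp), 0.28 for Padi4 (4835 bp) and 0.66 for Mmp25 (5303 bp). Apart from Mmp8, the values for the group followed the order of length. After the median deviation of each length quartile was subtracted in each library, a setting chosen after seeing the data, the difference was 0.02 for Padi4, -0.03 for Ly6g, -0.26 for Retnlg, 0.40 for Mmp25 and 0.57 for Mmp8. The SD of Retnlg over Mmp25 was then 0.34 and that of Retnlg over Mmp8 was still 0.47, and 26 of 36 ratios had an SD under 0.25. The basophil markers, highest in replicate 1, and the eosinophil markers, lowest there, also differed between these libraries, and their part in the values of Mmp25, Mmp8 and Retnlg was not tested.

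**Figure D4:**
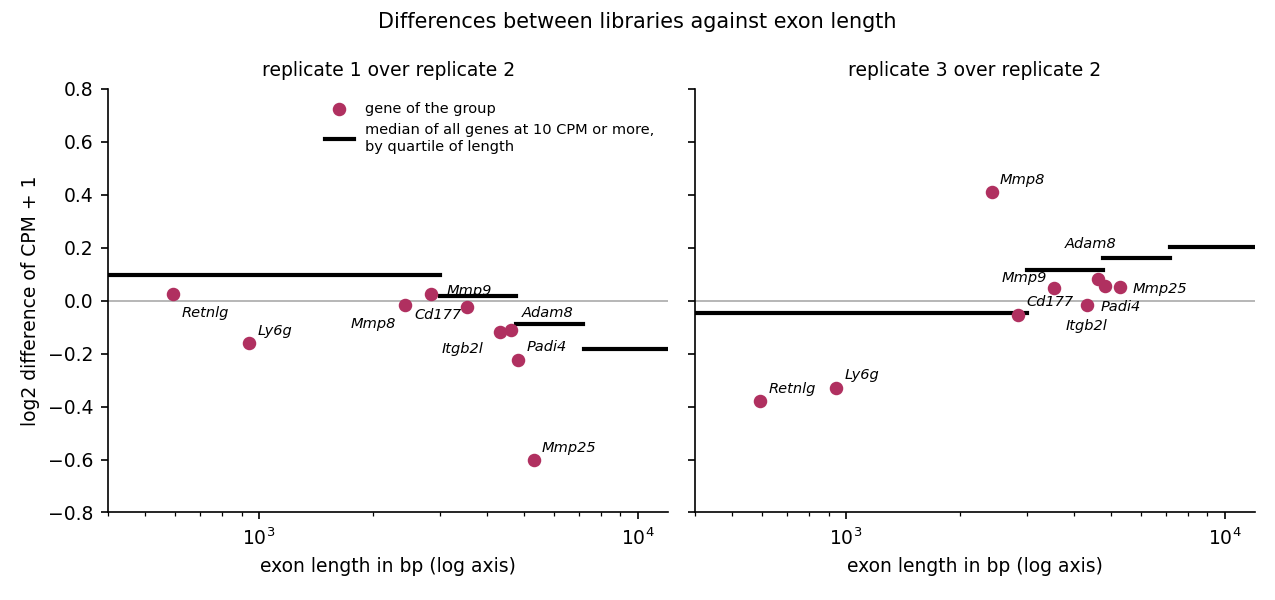
Log2 difference of CPM + 1 for replicate 1 over replicate 2 (left) and replicate 3 over replicate 2 (right) against exon length on a log axis. Points are the 9 genes and bars the medians of genes averaging 10 CPM or more by length quartile. Long genes run lower in replicate 1 and higher in replicate 3, and Mmp25 (-0.60, left) and Mmp8 (0.41, right) stand farthest from the bars.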

How the data were processed

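The authors deposited 1 file per library with CPM per gene. The submitters' processing notes name edgeR, featureCounts, STAR and FastQC, and the builds mm10 and GRCh38, without roles. No version, annotation, strand setting or gene filter is given in the sources used here. Of 11463 entries per file, 44 repeated a gene and were dropped, and the CPM of each library then summed to 1000000. In each library 100% of values were whole multiples of 1 read within 0.01 reads, which gave the reads and totals. The libraries differed by far more than sampling noise (chi-square per degree of freedom 35.4 to 83.6).

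Gene lengths and positions came from GENCODE M21 (GRCm38, the assembly of mm10), with 99.9% of genes matched. Genes with at least 10 reads over the libraries were fitted in limma 3.58.1 (R 4.3.3) on log2(CPM + 1), two-sided, with a variance trend and Benjamini-Hochberg adjustment over all genes, and called at 0.05. edgeR 4.0.16 and DESeq2 1.42.0 were run on the recovered reads. A difference on this scale understates that of low genes. All 9 genes are named, with the 3 highest and 2 lowest of the neutrophil, protease and cell cycle lists, relatives, partners and the genes of single-gene ratios. Lists of other cell types are given as sums, and from them Siglec1 is named as a gate marker. Adgre1 and Cx3cr1, also of the gate, and Kdr were chosen after their values were seen, as was Slc11a1. The members and lists were chosen with earlier results of these data known.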

Additional observations from a re-analysis of the deposited data

How the results depend on the processing

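Of 288 tests of single genes under other settings, 281 kept their direction and their side of the threshold and 4 changed sign: Padi4 (1.05) and Adam8 (0.12) against the azurophil level without length correction, Itgb2l (-0.10) against it with the list's median, and Retnlg (0.026) against the specific granule level with the list's median. Every change came with the length correction left out or with list medians. Many of the other tests could hardly change, so the count of 281 says little about robustness. The 9 genes had at least 257 CPM in every library, above the fixed levels of 5, 10 and 100 CPM. Library scaling nearly cancels in differences within a library. Retnlg was not called with either the mean or the median per length. None of the 9 was called lower than the azurophil level without length correction (0 in place of 2), beside 95.8% of all genes. All 9 were above 10 CPM under every setting, including edgeR and DESeq2 on the recovered reads, where edgeR called 59.9% of all genes above and 25.1% below. The log2 ratios of the group mean to the azurophil, specific granule, mature receptor and cell cycle means were 1.92, -2.96, 2.85 and 3.10 without length correction and 0.90, -3.32, 2.23 and 3.79 with list medians. Leaving out 1 library gave 1.42 to 1.64, -3.69 to -3.55, 2.48 to 2.60 and 3.97 to 4.06, and a share of reads of 1.94 to 1.97%. No paired analysis was possible because there was 1 group. With 3 libraries of unequal depth and no second population, the data give levels and not changes, and a gene outside the list has no known level.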

Other observations

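Membrane proteins that gelatinase granules and secretory vesicles carry to the neutrophil surface were represented by 9 genes. Of these, 5 were above 10 CPM, 2 below and 2 (Alpl and Mme) not listed, a split near the 58.8% above and 28.3% below over all genes (limma, adjusted p under 0.05). Itgb2 was at 2267 ± 184 CPM, Cybb and Cyba, the membrane subunits of the phagocyte oxidase, at 2215 ± 275 and 1293 ± 213 CPM, Itgam at 503 ± 55.1 CPM and Slc11a1, a metal transporter of granule and phagosome membranes, at 88.5 ± 7.04 CPM (SD, n = 3). Cd14 (8.93, 3.16 and 1.57 CPM in replicates 1, 2 and 3) and Anpep (1.07 ± 0.381 CPM) were the low ones. The sum of the 9 gelatinase and mature genes was 3.20, 3.04 and 2.96 times the sum of the listed membrane genes in replicates 1, 2 and 3, the least variable ratio of sums among the lists compared by SD relative to the mean.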
